A study of Danio rerio with 12 samples.

Results

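Endothelial cells line blood vessels, and the comparison described here sets the microRNAs of sorted endothelial cells of zebrafish larvae at 6 dpf (days post fertilization) against those of the other sorted cells of the same stage. Its members are 2 of the 12 samples of the series, the library titled Endo and the library titled NoEndo at 6 dpf, and every mature microRNA with at least 1 count in either of them, 297 of the 326 found in the libraries used. The series measured small RNA at 4 stages, 24, 48 and 72 hpf (hours post fertilization) and 6 dpf, with 6 libraries titled Endo and 6 titled NoEndo. Both 6 dpf libraries came from transgenic zebrafish raised at 28 °C, whose cells were dissociated with Liberase and sorted by FACS on GFP, and both were made from Trizol RNA with Illumina TruSeq reagents. The transgene, the strain and the number of larvae pooled could not be learned from the labels. The NoEndo label set also reads endothelial and GFP for source, tissue and stain, so the populations rest on the titles alone.

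A microRNA is a short RNA that pairs with messenger RNAs through its 5′ seed and lowers their translation and stability. It is cut from a hairpin precursor that can release a mature product from either arm, written 5p and 3p, and many lie in clusters that are transcribed together. In vertebrates miR-126 lies within egfl7, a gene expressed by endothelium, and is the best known microRNA of that cell type, with roles in vessel integrity and the response to VEGF. Other microRNAs mark other tissues, such as miR-205, miR-203 and the miR-200 family in epithelia and skin, miR-122 in liver and miR-124 in neurons. No microRNA sequence table was used here, so members are given by name and, where the files list 1 genomic copy, by their Zv9 position. No Zv9 gene annotation was used, and the GRCz12tu gene table served only to look up the name of a surrounding gene.

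The Endo library held 250084 reads on mature microRNAs and the NoEndo library 1739921, which were 13.7% and 32.5% of a larger library total that the file headers do not define. Levels are given as CPM, the share of the library's summed microRNA counts scaled to 1000000. At these depths 1 count was worth 4.00 CPM in Endo against 0.577 CPM in NoEndo, and a count of 0 allows up to 12.0 and 1.73 CPM (3 counts). With 1 library of each population there is no replicate and no test, so ratios are given with 95% exact intervals that cover counting error only. A difference in level between sorted populations cannot tell fewer cells of a type from less RNA per cell. The 48 hpf replicates served as a measure of how far apart libraries of 1 population lie. Replicate 1 at 72 hpf was not used, because the tables titled Endo and NoEndo hold identical values.

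The label was checked against miR-126 first. miR-126a-3p (chromosome 8, 12065968 to 12065988, minus strand, Zv9) stood at 12038 CPM in Endo, from 3009 counts, and at 107 CPM in NoEndo, from 186 counts, a ratio of 112 (96.6 to 131). miR-126b-3p (chromosome 11, 38496011 to 38496032, plus strand) stood at 2649 CPM in Endo against 14.4 CPM in NoEndo, a ratio of 183 (123 to 286). The entry that the files share between the 5p arms of both hairpins was at 1408 and 13.9 CPM, a ratio of 102 (67.2 to 161). All 3 miR-126 entries were therefore far higher in the library titled Endo, and together they made up 1.61% of Endo and 0.0136% of NoEndo counts. The GRCz12tu gene table places miR-126b inside egfl7 and LOC141379972, and the more abundant miR-126a inside LOC141375582.

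A small number of microRNAs made up most of both larval libraries. In Endo, 3 microRNAs held 50% of the counts and 20 held 90%, against 4 and 25 in NoEndo. The 10 most abundant took 81.6% of Endo and 76.1% of NoEndo, and 6 microRNAs were among the 10 in both. miR-125b-5p was first in Endo at 21.4% and second in NoEndo at 16.7%. miR-92a-3p, from the growth-linked miR-17-92 clusters, was second in Endo at 21.2% and first in NoEndo at 17.8%. The miR-125 family, relatives of the worm timing microRNA lin-4, took 40.3% of Endo and 29.4% of NoEndo counts over its 3 abundant and 3 scarce entries. miR-125a was at 10.8% and 6.19%, and miR-125c-5p at 8.16% and 6.53%. Reads of near-identical miR-125 members are uncertain between them, and the family sum does not depend on that division.

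**Figure D1:**
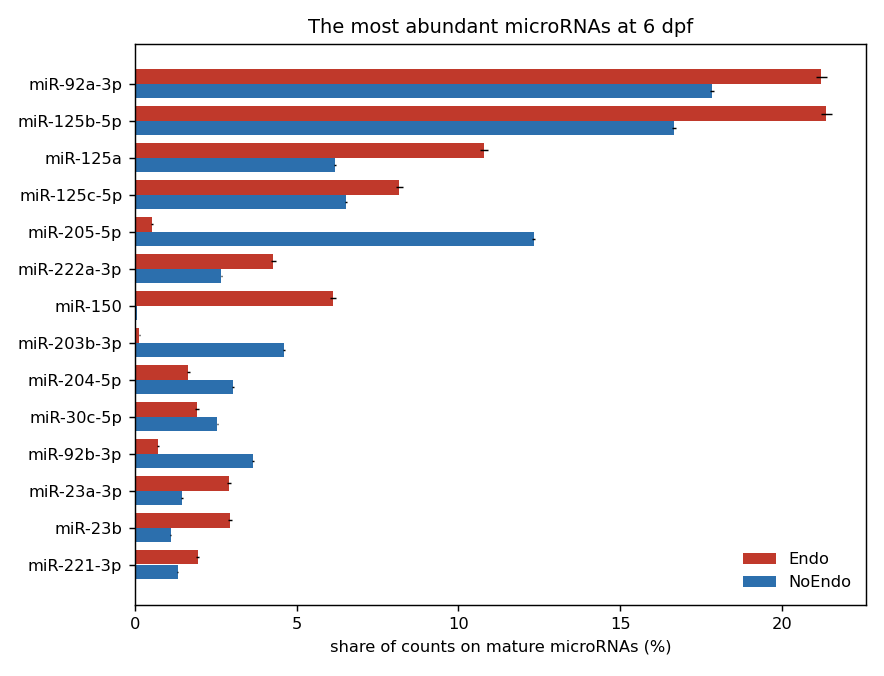
Share of mature microRNA counts (%, x axis) of the 10 most abundant microRNAs of either 6 dpf library, with 95% exact binomial intervals that cover counting error only. miR-125b-5p and miR-92a-3p lead both libraries, while miR-205-5p and miR-203b-3p are long bars in NoEndo alone and miR-150 in Endo alone.

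The libraries parted in a few abundant microRNAs. miR-205-5p took 0.515% of Endo and 12.3% of NoEndo counts, the widest gap, and miR-203b-3p took 0.132% and 4.62%. miR-150, known from lymphocytes in mammals, ran the other way with 6.13% and 0.0666%. Summed over all microRNAs, 30.6 percentage points of the composition would have to move to turn one library into the other, and 69.4% was shared. The 5 microRNAs that lost most in Endo (miR-205-5p, miR-203b-3p, miR-92b-3p, miR-184 and miR-204-5p) held 73.6% of all losses. The 5 that gained most (miR-150, miR-125b-5p, miR-125a, miR-92a-3p and miR-23b) held 67.2% of all gains. For scale, the replicates of 1 population at 48 hpf shared 85.4% of their composition in Endo and 75.0% in NoEndo.

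The Endo library listed 227 microRNAs and NoEndo 295, and 225 were in both. At the Endo total, 265 would be expected to be seen in NoEndo. The 70 that were found in NoEndo alone were scarce, with miR-34c-5p the highest at 127 counts (73.3 CPM). As that level lies over the limit of 12.0 CPM that 0 counts allow in Endo, miR-34c-5p was at least 6.11-fold lower there. The 2 found in Endo alone had at most 11 counts.

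Ratios were read for the 160 microRNAs with a mean of at least 50 CPM over the 2 libraries, and a microRNA was called higher or lower when the levels lay at least 4-fold apart. By that rule 15 were higher in Endo (9.38%) and 38 were lower (23.8%). The median log2 ratio of Endo over NoEndo was -0.43, and 64 microRNAs (40.0%) lay within 2-fold. Between the Endo replicates at 48 hpf 14 of 182 microRNAs lay 4-fold apart (7.69%), and between the NoEndo replicates 23 of 213 (10.8%). With TMM scaling, which sets the bulk of microRNAs equal, these replicate counts were 5 and 12. With the replicates thinned to the count total of Endo at 6 dpf, they were 19 and 28. The median size of the log2 difference was 1.22 at 6 dpf, against 0.66 and 0.64 between those replicates, and 90% of microRNAs lay within 4.25 at 6 dpf, against 1.78 and 2.04. The populations at 6 dpf were thus further apart than these replicates. The rate of higher calls is close to the rate of calls in either direction between replicates, so a single ratio near 4 does not stand clear of library spread. Nearly all replicate calls by total counts ran 1 way. All 14 in Endo and 21 of the 23 in NoEndo were lower in replicate 1 than in replicate 2.

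**Figure D2:**
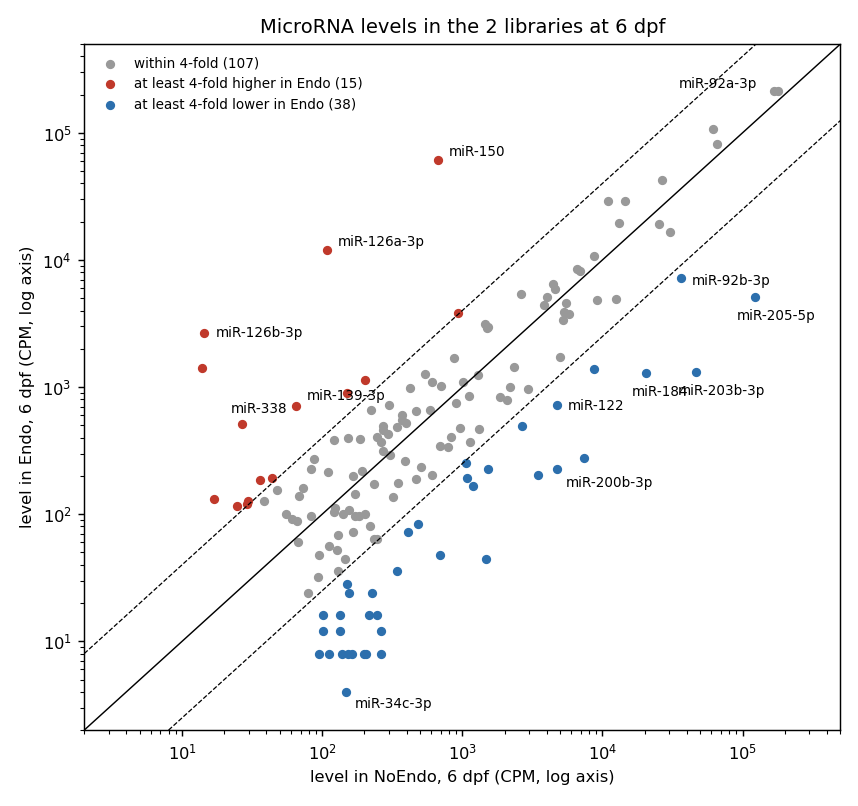
Level of each of the 160 microRNAs in NoEndo (x axis) and Endo (y axis) at 6 dpf, in CPM on log axes, with the solid line at equal levels and dashed lines at 4-fold. The miR-126 entries and miR-150 stand far above the line, and miR-205-5p and miR-203b-3p far below it at high level.

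**Figure D3:**
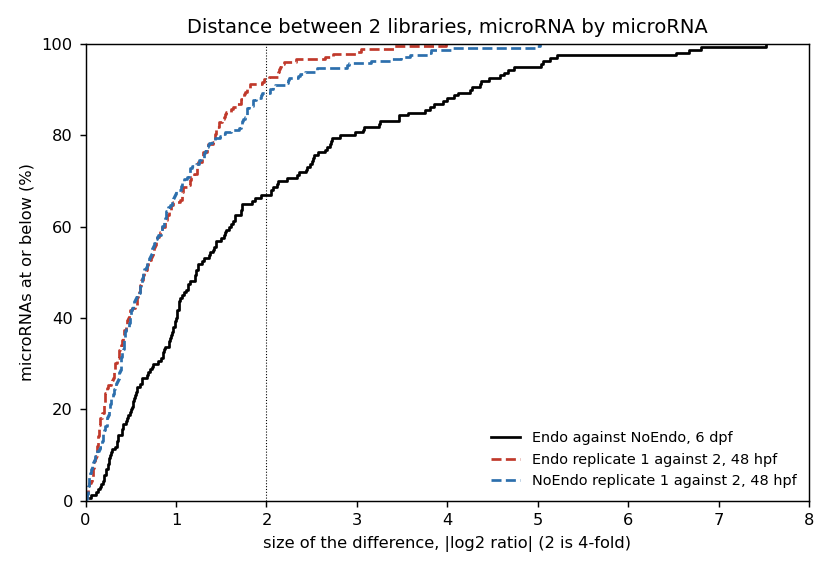
Share of microRNAs (%, y axis) whose log2 ratio between 2 libraries is no larger than the value on the x axis, with the dotted line at 4-fold. The curve of Endo against NoEndo at 6 dpf lies to the right of both curves of 48 hpf replicates, with medians of 1.22, 0.66 and 0.64.

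The list of other microRNAs linked to blood vessels holds the miR-23, miR-24, miR-27, miR-139, miR-221 and miR-222 families. Like all lists here, it was chosen with earlier results of these data known, and it counts arms and copies of a family as separate entries. Of its 18 entries 12 reached the mean level, and all 12 lay above a ratio of 1, beside 70 of all 160. Of these 12, 6 were called higher and none lower, beside 9.38% higher and 23.8% lower over all 160. Their median log2 ratio was 1.88, beside -0.43 for all 160. miR-139-3p (chromosome 15, 47153872 to 47153894, plus strand) had the largest ratio, at 712 CPM in Endo against 64.7 CPM in NoEndo (3.46 on the log2 scale, with a ratio interval of 8.64 to 14.1). The other arm of its hairpin, miR-139-5p, was at 1140.2 and 201 CPM (5.67, 4.83 to 6.66). miR-24 was at 3821 and 924 CPM, a ratio of 4.13 (3.81 to 4.48), just inside the 4-fold limit.

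The most abundant members of that list differed less. miR-222a-3p, which in mammalian endothelium restrains the stem cell factor receptor KIT, was at 42688 CPM in Endo against 26737 CPM in NoEndo (1.60, 1.56 to 1.63). Its cluster partner miR-221-3p was at 19356 and 13167 CPM (1.47, 1.42 to 1.52). miR-23b was at 29269.9 and 10997 CPM (2.66, 2.59 to 2.73). These intervals exclude 1 by counting alone, and the log2 ratios are smaller than the differences of 1.78 and 2.04 that enclosed 90% of microRNAs between 48 hpf replicates. The list as a whole took 12.8% of Endo and 6.72% of NoEndo counts.

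Blood cell microRNAs split. miR-150 (chromosome 3, 32708295 to 32708316, plus strand) was at 61348 CPM in Endo, where it had rank 5, and at 666 CPM in NoEndo, a ratio of 92.1 (86.7 to 97.8). miR-223, a microRNA of myeloid cells, was at 548 and 368 CPM, a ratio of 1.49 (1.23 to 1.79). miR-146a and miR-146b, which dampen inflammatory signalling in mammals, were lower in Endo by value, at 44.0 against 146 CPM and 48.0 against 95.3 CPM. miR-142a-3p, a pan-leukocyte microRNA, had 16 counts in Endo and 9 in NoEndo, under the mean level, at a ratio of 12.3 (5.13 to 31.6). miR-451, which is needed for red blood cell maturation, was at 112 and 124 CPM. Of the 4 leukocyte entries that reached the mean level 1 was called higher, miR-150, beside 9.38% over all 160. The other 3 had ratios of 0.301 to 1.49. The list took 6.21% of Endo counts, nearly all of it miR-150, and 0.129% of NoEndo counts. The share of blood cells in either sort was not tested.

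Among the other higher calls, miR-338 was at 512 and 26.6 CPM (19.3, 13.7 to 27.6). let-7e, from the let-7 family that rises with developmental age, was at 892 and 151 CPM (5.92, 4.93 to 7.11), while the other 6 let-7 entries read stayed within 4-fold and 2 of them lay below 1. miR-101a was at 184 and 35.8 CPM (5.14, 3.43 to 7.65). The vascular members miR-27c-3p, miR-23a-3-5p and miR-27a-3p, with miR-18a and miR-30e-5p, had ratios of 4.16 to 7.88 from at most 48 counts in Endo. The interval of miR-27c-3p, 4.64 to 13.5, lay wholly past 4-fold, and those of the other 4 reached below it. Spread between libraries is not covered by the intervals of this paragraph. The 48 hpf replicates of miR-27c-3p stood at 83.4 and 366 CPM in Endo, and those of miR-338 at 156 and 685 CPM. Those of let-7e and miR-23a-3-5p lay closer, at 1942 and 2490 CPM and at 52.5 and 61.9 CPM in Endo. Over the 6 Endo and NoEndo pairs before 6 dpf, the ratio of miR-338 ran from 1.25 to 40.6. That of miR-101a ran from 0.105 to 3.6. The nearest microRNAs outside the limit were miR-29b at 3.31 and miR-221-5p at 3.30. Both miR-29 entries, which in mammals target collagen genes, lay above 1, with miR-29a at 380.1 and 121 CPM.

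Epithelial and skin microRNAs had the lowest median ratio of the lists with more than 3 entries read. All 10 entries of the list that reached the mean level were called lower, beside 23.8% over all 160. Their median log2 ratio was -4.48, beside -0.43 for all 160. The 15 entries together took 0.709% of Endo and 18.4% of NoEndo counts, a 26.0-fold gap (24.8 to 27.2). In the 48 hpf replicates the list took 1.48% and 0.988% of Endo counts and 25.5% and 7.30% of NoEndo counts. For miR-203a-3p the NoEndo replicates at 48 hpf stood at 22676 and 2538 CPM. The intervals of this paragraph do not cover that spread, so the size of the gap is less firm than they show. miR-205-5p (chromosome 23, 33503962 to 33503983, plus strand), which maintains basal epithelial cells, was at 5153 CPM in Endo against 123326 CPM in NoEndo, 23.9-fold lower (22.7 to 25.3). miR-203b-3p (chromosome 20, 27435535 to 27435556, plus strand), which limits the stem cell factor p63 in mammalian skin, was at 1316 and 46189 CPM, 35.1-fold lower (31.5 to 39.2). miR-203a-3p was at 276 and 7351 CPM, 26.6-fold lower (21.0 to 34.2). Even so, miR-205-5p was still the microRNA with rank 20 in Endo, and miR-203b-3p had rank 39.

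The miR-200 family, which in mammals holds down the mesenchymal factors ZEB1 and ZEB2, is encoded at 2 sites. On chromosome 23, miR-200b-3p (24358961 to 24358982, plus strand) was at 228 CPM in Endo against 4737 CPM in NoEndo, 20.8-fold lower (16.0 to 27.5), and miR-429a had 2 counts against 455. On chromosome 6, miR-200c-3p (40587081 to 40587102, minus strand) was at 44.0 and 1470.2 CPM, 33.4-fold lower (18.6 to 67.0), and its neighbours miR-141-3p and miR-429b were 11.1-fold and 9.53-fold lower. Both sites were thus low in Endo in every member that could be read.

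**Figure D4:**
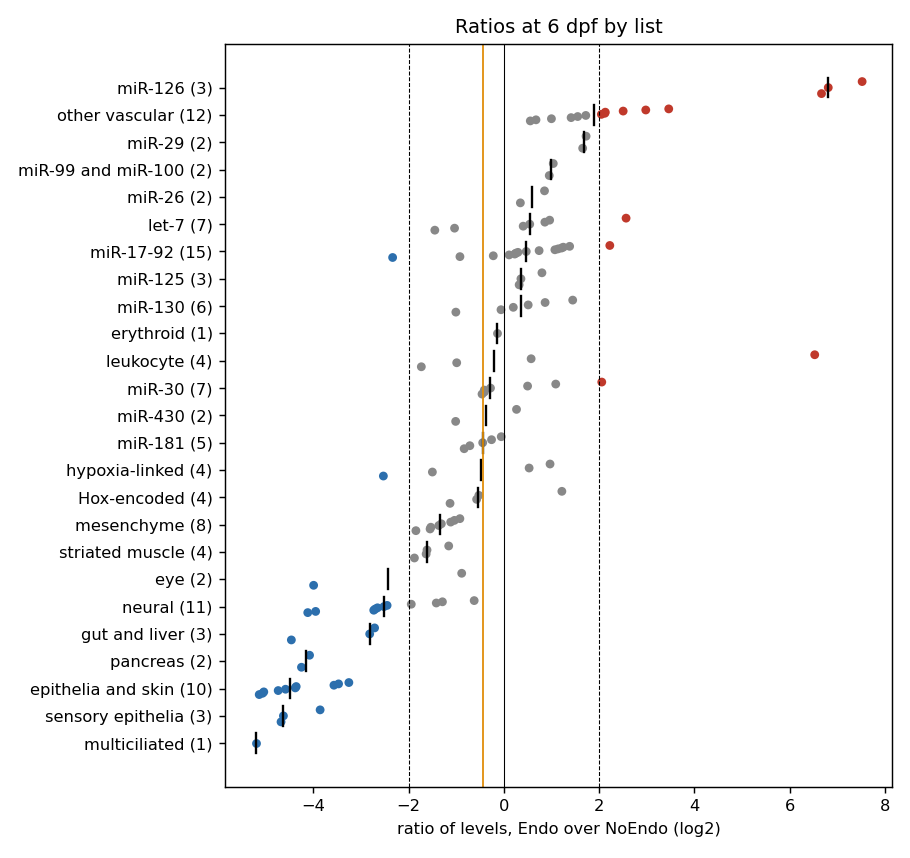
Log2 ratio of Endo over NoEndo at 6 dpf (x axis) of each microRNA at or above the mean level, by list (y axis, with the number of microRNAs), with list medians as black bars, the median of all 160 as an orange line and dashed lines at 4-fold. The miR-126 and other vascular lists lie to the right, and the epithelial, sensory, pancreas, gut and liver and neural lists to the left.

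The lists of other tissues pointed the same way. Over 9 lists (epithelia and skin, sensory epithelia, neural, multiciliated, striated muscle, mesenchyme, gut and liver, pancreas and eye), 44 entries reached the mean level, 27 were called lower, 0 were called higher, and all 44 lay below 1. Over all 160 microRNAs, 9.38% were called higher and 23.8% lower, and 90 lay below 1. The 27 are most of the 38 lower calls. The 9 lists took 4.77% of Endo and 30.4% of NoEndo counts, a 6.37-fold gap. Each of the 44 had at least 1 count in Endo, and 25 of the 85 entries on these lists, the scarce ones, had 0.

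Sensory and ciliated cell microRNAs were near the lower end of what the Endo depth can show. miR-96-5p and miR-183-5p, a cluster of hair cells and photoreceptors on chromosome 4, had 2 counts each in Endo against 354 and 342 in NoEndo. miR-183-3p was at 48.0 and 695 CPM, 14.5-fold lower (8.25 to 28.1). miR-34c-3p, from a family that promotes multiciliated cells, had 1 count in Endo and 256 in NoEndo, and its interval ran from 6.57 to 1465. For these microRNAs the direction is plain by counting error alone and the size is not. Spread between libraries is not covered. In the 48 hpf replicates miR-96-5p was at 6.56 and 90.2 CPM in Endo and at 93.6 and 706 CPM in NoEndo. There miR-183-5p lay closer together, at 0.937 and 2.69 CPM in Endo and at 20.0 and 23.9 CPM in NoEndo.

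The pancreas microRNAs miR-375, abundant in endocrine cells, and miR-217, known from the exocrine pancreas, were both called lower, beside 23.8% over all 160. miR-375 was at 204 CPM in Endo against 3443 CPM in NoEndo, 16.9-fold lower (12.8 to 22.7), and miR-217 had 2 counts against 263. The liver microRNA miR-122 (chromosome 21, 9416786 to 9416807, minus strand) was at 724 and 4745 CPM, 6.55-fold lower (5.65 to 7.63). The intestinal cluster partners miR-192 and miR-194a were at 168 against 1182 CPM and 12.0 against 264 CPM. The intervals of miR-122 and miR-192 (5.19 to 9.79) overlap, so their order cannot be read at this depth, and miR-122 kept 181 counts in Endo.

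Neural microRNAs were lower to very different degrees. Of 27 entries 11 reached the mean level and 7 of these were called lower, beside 23.8% over all 160, and the median log2 ratio was -2.52. The 7 were miR-124-3p and entries of miR-9 and miR-129, so arms and copies of the same family count separately. miR-9-5p, a microRNA of neural progenitors, was at 228 CPM in Endo against 1512 CPM in NoEndo, 6.63-fold lower (5.10 to 8.78). miR-124-3p, the neuronal microRNA, was at 24.0 and 156 CPM, 6.49-fold lower (2.95 to 17.9). miR-129-3p was at 1376 and 8645 CPM, 6.28-fold lower (5.64 to 7.01). miR-138-5p was at 784 and 2094 CPM and miR-128-3p at 3757 and 5781 CPM, both within 4-fold.

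Muscle and connective tissue lists had no call, beside 9.38% higher and 23.8% lower over all 160. Of the 11 striated muscle entries 5 had 0 counts in Endo, and the 4 that reached the mean level were 2.23-fold to 3.67-fold lower in Endo, with miR-206-3p at 836 and 1864 CPM and miR-133b-3p at 960.2 and 2935 CPM. The 8 of 9 mesenchyme entries that reached it were 1.89-fold to 3.59-fold lower. Among them miR-214 was at 4885 and 12576 CPM, and miR-145-5p, a smooth muscle and pericyte microRNA, at 4805 and 9103 CPM. The mesenchyme list still took 1.24% of Endo counts, against 2.88% of NoEndo counts, a smaller gap than that of epithelia. In the eye list, miR-184, known from lens and cornea, was at 1296 and 20618 CPM, 15.9-fold lower (14.3 to 17.8), while miR-204-5p of the pigment epithelium was at 16443 and 30344 CPM, 1.85-fold lower (1.79 to 1.91).

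The summed share of the growth-linked miR-17-92 list differed little, while most of its single entries lay above 1. The list took 23.6% of Endo and 22.7% of NoEndo counts over 27 entries, of which miR-92a-3p alone held 21.2% and 17.8%. Of the 15 that reached the mean level 12 lay above 1, beside 70 of all 160. Their median log2 ratio was 0.47, beside -0.43 for all 160. Of the 15, 1 was called higher and 1 lower, beside 9.38% higher and 23.8% lower over all 160. The lower call was miR-92b-3p (chromosome 16, 45736536 to 45736557, plus strand), at 7221 CPM in Endo against 36396 CPM in NoEndo, 5.04-fold lower (4.81 to 5.28), whereas its relative miR-92a-3p was at a ratio of 1.19 (1.18 to 1.20). The miR-30, miR-181, miR-130, miR-26, miR-99 and Hox-encoded lists had no call, apart from miR-30e-5p. Of the 4 entries linked to low oxygen, miR-731 was called lower at 84.0 and 484 CPM, and its cluster partner miR-462 was at 464 and 1312 CPM, 2.83-fold lower (2.35 to 3.44). The other 2, both arms of miR-210, lay above 1, with miR-210-3p at 216 and 110 CPM (1.96, 1.42 to 2.66) and miR-210-5p at a ratio of 1.45 (1.16 to 1.78). At the lower limit of the rule, miR-2188-5p was just inside at 4.21-fold lower and miR-132-3p just outside at 3.84-fold lower.

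MicroRNAs encoded close together could be read as a further description. Within 10 kb on 1 strand, leaving out arms of the same hairpin, 81 pairs of the 160 microRNAs were found, and in 10 of them both partners were called. In each of the 10 pairs both partners were called in the same direction, where 15 higher and 38 lower calls were made over all 160. How often called partners would agree from that mix alone was not worked out. Some hairpins entered with both arms, as miR-200b did beside miR-429a and miR-183 beside miR-96-5p. The lower pairs lie in the miR-200, miR-183 and miR-192 clusters named above, and the higher pairs were miR-23a-3-5p with miR-27a-3p on chromosome 2 and miR-27c-3p with miR-24 on chromosome 3. Neighbours share a transcript in many clusters, and the reads of miR-23, miR-24 and miR-27 copies are uncertain between sites, so these pairs are not independent of each other. Other pairs had only 1 partner called, such as miR-18a with miR-17a-5p, let-7e with let-7a, and miR-731 with miR-462.

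The arms of 1 hairpin were mostly used alike. There were 43 hairpins with both arms listed and at least 50 counts in each library. The median difference in their 5p share was 1.19 points, and the intervals lay apart in 9 of the 43. In 42 of the 43 the major arm was the same in both libraries. The exception was miR-130c, with 41.3% of its counts on the 5p arm in Endo (34.6 to 48.4) and 66.9% in NoEndo (64.6 to 69.1). The 5p share of miR-30e was 24.4% in Endo and 9.88% in NoEndo, and that of miR-30c 86.0% and 94.6%. For miR-30e the 48 hpf replicates lay further apart than that in NoEndo, at 18.3% and 37.0%, and somewhat less far in Endo, at 13.1% and 25.2%. For miR-130c the 48 hpf replicates were at 45.0% and 27.0% in Endo and at 33.3% and 21.9% in NoEndo. For miR-30c the 48 hpf replicates lay close together, at 97.1% and 97.0% in Endo and at 99.2% and 99.1% in NoEndo. The 5p share of miR-139 was 61.6% in Endo and 75.7% in NoEndo. In the 48 hpf replicates it was 85.9% and 95.3% in Endo and 94.0% and 95.7% in NoEndo. For miR-455 the shares were 32.0% and 23.1%, with overlapping intervals.

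Set beside the earlier stages, some larval differences had been present all along and others had not. Over the 6 pairs of an Endo and a NoEndo library at 24, 48 and 72 hpf, 8 of the 15 microRNAs higher at 6 dpf were above 1 in every pair, and 5 were past 4-fold in every pair. Of the 38 lower ones, 31 were below 1 in every earlier pair and 7 were past 4-fold in every pair. Over all 160 microRNAs, 11.9% were above 1 and 27.5% below 1 in every earlier pair. Past 4-fold in every pair were 4.38% in the higher and 4.38% in the lower direction. With TMM scaling, added after the data were seen, the shares above and below 1 were 23.8% and 23.1%. Those past 4-fold were 4.38% higher and 2.5% lower. The counts under TMM were 8 and 5 of the 15 and 29 and 4 of the 38. The 4 pairs at 48 hpf share libraries, so these are not independent repeats. miR-126a-3p had ratios of 51.0 to 158 at the earlier stages, and miR-150 of 27.2 to 171. The ratio of miR-205-5p was 0.0427 to 0.402 earlier and 0.0418 (0.0395 to 0.0441) at 6 dpf, and that of miR-203b-3p 0.0314 to 0.424 and 0.0285 (0.0255 to 0.0318). Both intervals include the lowest earlier ratio.

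The higher calls that had not been above 1 throughout were miR-27c-3p, miR-101a, miR-18a, miR-23a-3-5p, miR-27a-3p, miR-30e-5p and miR-24. miR-24 ranged from a ratio of 0.802 to 2.84 earlier. Whether its Endo or its NoEndo level stood apart depends on the scaling. By total counts the NoEndo level was under the earlier range and the Endo level within it, and by TMM the NoEndo level was within the range and the Endo level above it. miR-101a had its highest Endo level at 6 dpf, 184 CPM against at most 99.6 CPM before. Among the lower calls, miR-731, miR-734, miR-724, miR-122, miR-192, miR-194a and miR-9-7-3p had been at or above 1 in at least 1 earlier pair. miR-731 rested on a NoEndo level of 484 CPM, where the earlier NoEndo libraries held 24.6 to 39.9 CPM, and miR-462 stood in NoEndo at 1312 CPM against 43.6 to 117 CPM. In Endo both also lay above their earlier ranges. There miR-731 was at 84.0 CPM against 30.8 to 42.2 CPM, and miR-462 at 464 CPM against 27.8 to 166 CPM. No stage difference was tested, since 6 dpf has 1 library a population.

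Liver miR-122 was at its highest in both populations at 6 dpf. In NoEndo it was at 9.34 CPM at 24 hpf, 4437 CPM at 72 hpf and 4745 CPM at 6 dpf. In Endo it was at 21.6, 258 and 724 CPM. miR-129-3p was likewise highest at 6 dpf in both, at 1376 CPM in Endo against 278 to 1095 CPM earlier and at 8645 CPM in NoEndo against 294 to 1886 CPM. The myeloid miR-223 went the other way in Endo, at 548 CPM against 1327 to 7035 CPM earlier, and under TMM its Endo level was also below the earlier range. The NoEndo level of miR-223 lay within the earlier range by total counts and above it under TMM. By total counts the ratio of miR-223 was 6.18 to 9.88 over the earlier pairs and 1.49 at 6 dpf. miR-126b-3p was at its lowest in both populations at 6 dpf by total counts, and in NoEndo under TMM too. Under TMM its Endo level of 5658 CPM lay too close to the earlier minimum of 5712 CPM to be ordered. miR-126a-3p in Endo lay within the earlier range, and in NoEndo it was lowest by total counts and within the range under TMM. The statements above on miR-101a in Endo, and on miR-731, miR-462, miR-122 and miR-129-3p in both populations, kept their direction under TMM.

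**Figure D5:**
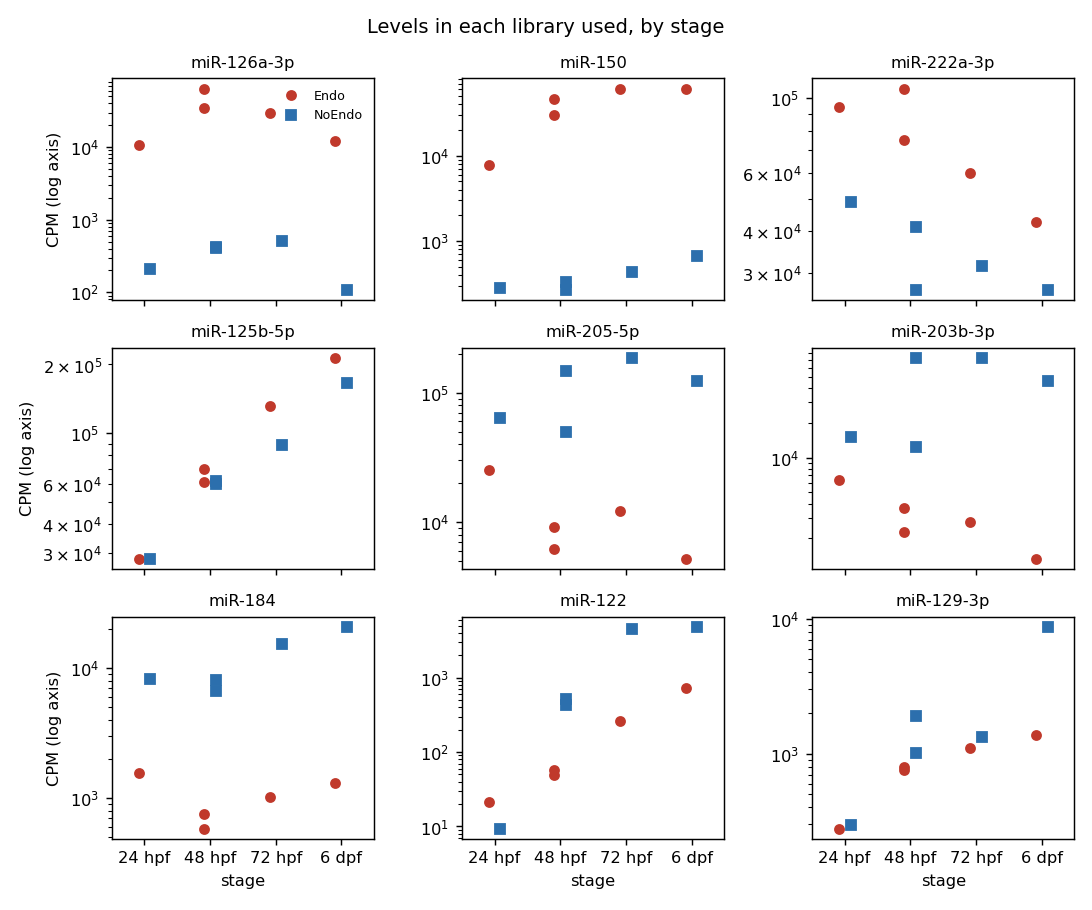
Level (CPM, log axes that differ between panels) of 9 microRNAs in each library used, by stage, with Endo as red circles and NoEndo as blue squares, 1 library of each at 24 hpf, 72 hpf and 6 dpf and 2 of each at 48 hpf. miR-126a-3p and miR-150 are higher and miR-205-5p, miR-203b-3p and miR-184 lower in Endo at every stage. miR-122 is not lower at 24 hpf, where it has few counts.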

How the data were processed

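Small RNA from cells of transgenic zebrafish was sequenced after FACS, per the labels' protocols. STAR 2.3.0 and the genome build Zv9 are named in the submitters' processing notes; for trimming, annotation, counting program and filters, the tools and settings are not given in the sources here. The deposited read counts are whole reads per genomic copy of a mature microRNA. The deposited expected counts, adjusted for multiple mapping per the file headers, divide a read over its places. The deposited signal columns hold RPM relative to 2 totals per the file headers, and served only to recover those totals. The unique-read columns, of another kind, were not used in levels.

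Expected counts were summed over copies by name and rounded. No molecular identifiers are stated, so all intervals and the limit of 3 counts cover counting error only. CPM are relative to the library's summed counts, 249950 in Endo and 1731773 in NoEndo. Shares have Clopper-Pearson intervals and ratios exact conditional binomial intervals at 95%. No test was made, because each population has 1 library at 6 dpf. Reads of near-identical members (such as those of miR-23, miR-27, let-7 and miR-125) are uncertain between them. Named microRNAs are the 10 most abundant of each library, the 15 largest and 15 smallest ratios where the mean reached 50 CPM, the 5 hairpins with the largest arm difference, and members of 25 lists; others singled out, such as miR-29, miR-122, miR-731 and the stage examples, were chosen after their values were seen. The members and lists were chosen with earlier results of these data known. MicroRNA names were looked up in the gene table of GRCz12tu, where 47 of 63 matched. Alternatives were other scalings, filters, folds, unadjusted counts, summed arms and thinning. The ratio step was tested on simulated data. Tools were Python 3.11.15, numpy 2.4.6, pandas 2.3.3, SciPy 1.17.1, matplotlib 3.10.9, R 4.3.3 and edgeR 4.0.16, the last for TMM factors only.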

Additional observations from a re-analysis of the deposited data

Results flagged for a closer look

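Reads on the antisense strand of mature microRNAs, which no comparison above uses, stood at 20.0 CPM in Endo at 6 dpf (5 counts, 6.50 to 46.7 CPM) and at 2.89 CPM in NoEndo (5 counts, 0.937 to 6.74 CPM). The Endo value lies above the level in NoEndo and above the 12.0 CPM that a count of 0 allows, by counts alone and with overlapping intervals. Of the 5 Endo reads, 3 lay opposite miR-205-5p and 1 each opposite miR-10b-5p and miR-10d-5p. The cause was not tested.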

How the results depend on the processing

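Of the 15 higher and 38 lower calls, all 15 and 36 remained under TMM scaling over both 6 dpf libraries, 15 and 37 under TMM over all libraries used, and 15 and 35 under median-of-ratios size factors. With calls that were new under each scaling, the totals were 15 and 36, 19 and 41, and 20 and 35. These scalings moved every log2 ratio up by 0.17, 0.28 and 0.41. No call of a named microRNA changed direction; the erythroid list sum changed sign under the first, and miR-30c-5p reached 0 under the last. Without the filter there were 19 and 46 calls, and with a mean of 500 CPM 7 and 15. A fold of 2 gave 31 and 65, and a fold of 8 gave 6 and 25. A counting interval wholly past 4-fold left 9 higher and 27 lower. Thinning NoEndo to the Endo total gave 14 and 39, with 13 and 35 of the original calls. TMM lowered the microRNAs 4-fold apart between 48 hpf replicates to 5 in Endo and 12 in NoEndo. Thinning these replicates to the Endo total at 6 dpf raised them to 19 and 28. TMM at the earlier stages, chosen after seeing the data, left 4 in place of 7 lower calls past 4-fold in every earlier pair, and ranks of 6 dpf levels among stages depend on it. Depth limits the low end: 76 microRNAs in Endo had under 10 counts, against 47 in NoEndo. No paired analysis was possible because each population has 1 library at 6 dpf and no test was made. Leaving out a replicate was not possible for the same reason.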

Other observations

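Of the 160 microRNAs read, 37 belong to no list. Of these 37, 2 were higher in Endo, miR-338 and miR-101a, and 9 lower, beside 9.38% higher and 23.8% lower over all 160. The rate of lower calls was thus close to that over all 160. The median log2 ratio of the 37 was -0.49. The lower ones were scarce in Endo. miR-724 was at 192 CPM in Endo against 1073 CPM in NoEndo, 5.59-fold lower (4.20 to 7.60), and miR-2188-5p at 252 and 1060.2 CPM, 4.21-fold lower (3.27 to 5.50). miR-489 and miR-107b were 13.5-fold and 14.0-fold lower, from 4 and 2 counts in Endo. The other 5 were miR-734, miR-135c, miR-459-3p, miR-725-3p and miR-727-5p, from 3 to 7 counts. Among abundant members of the miR-15 and miR-16 families, miR-16b stood at 8462 CPM in Endo against 6617 CPM in NoEndo (1.28, 1.22 to 1.34) and miR-15c at a ratio of 1.19 (1.13 to 1.24), while the scarcer miR-15b-5p was at a ratio of 2.06 and miR-16c-3p at 0.497.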
